A study of Homo sapiens with 16 samples.

Results

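The peaks examined here are those that chromatin pulldowns from wild-type and POLK-/- HEK293T cells had in common. HEK293T is a human embryonic kidney cell line that carries viral oncogenes and divides quickly. A wild-type peak was taken as shared when it overlapped a POLK-/- peak by 1 bp or more (hg19 coordinates), and it was paired with the POLK-/- peak of highest fold among those it touched. By this rule 1129 of the 1468 wild-type peaks were shared, out of 9864 peaks in the 3 deposited lists. They were matched to 1113 of the 2451 POLK-/- peaks, because 12 POLK-/- peaks were taken by 2 wild-type peaks each and 2 by 3 each. The members were chosen by their presence in both lists, and the peaks named for their change of rank were selected on the same folds that are then compared, so these values are a description and no test was applied to them.

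The wild-type group is HEK293T cells labelled WT and the POLK-/- group is the same line labelled as a knockout of POLK. Neither received a treatment, and the labels do not say whether the knockout is 1 clone. A list from HEK293T cells labelled DDX23-/-, a knockout of a DEAD-box helicase of the spliceosome, is used only for values set side by side. Each genotype has 2 pulldown libraries and 2 control libraries but only 1 peak list. The labels give an antibody to Polk, whereas the protocol describes gel that binds the Flag epitope and no tag is named for these cells, so the protein that was held is uncertain. The number inside the peak names of the wild-type and DDX23-/- lists is not that of the sample each list is assigned to, so the library behind these lists is uncertain too. With 1 list per genotype there is no replicate check, and no difference below can be set against the spread between cultures.

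DNA polymerase kappa (Pol κ), the product of POLK, is a Y-family polymerase that copies past damaged bases, in particular adducts on the minor-groove side of guanine. RNA polymerase III (Pol III) makes the tRNAs and other short RNAs. At a tRNA gene the factor TFIIIC binds an A box and a B box inside the transcribed part, and TFIIIB and the polymerase follow. Protein-coding genes are read by RNA polymerase II, and many of their starts are GC-rich and lie in open chromatin.

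The strongest shared peaks lay at tRNA-type promoters, and 3 of their sites are shown because they carried the highest wild-type folds. Each is the stretch from A box to B box closest to the wild-type summit, read from GRCh37 in the direction of the promoter, with both boxes in capitals. The first is at chr6:28697099-28697151 on the plus strand, between genes and 113105 bp upstream of SCAND3. The second is at chr6:28806233-28806285 on the minus strand, near the start of the lncRNA gene ENSG00000225173. The third is at chr6:28763753-28763805 on the minus strand, within a short RNA gene annotated as AL662890.3. The fourth, at chr1:147737394-147737446 on the minus strand with NBPF24 as the nearest gene, and the fifth, at chr7:149361922-149361974 on the plus strand with KRBA1 as the nearest, lie in the tRNA-type peaks whose rank rose most and fell most from wild-type to POLK-/-.
SCAND3 site: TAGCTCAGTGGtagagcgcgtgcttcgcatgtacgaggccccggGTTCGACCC
ENSG00000225173 site: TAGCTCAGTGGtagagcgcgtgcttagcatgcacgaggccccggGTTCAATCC
AL662890.3 site: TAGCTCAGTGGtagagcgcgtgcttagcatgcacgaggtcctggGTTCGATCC
NBPF24 site: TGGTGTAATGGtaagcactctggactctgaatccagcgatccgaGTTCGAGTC
KRBA1 site: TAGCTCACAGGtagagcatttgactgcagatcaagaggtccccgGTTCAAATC
Each of these sites is 53 bp long with the B box beginning at position 45, and the summits of the wild-type peaks lay 30, 16, 28, 119 and 43 bp from their middles. The SCAND3 site peak had a fold of 85.5 in wild-type (rank 1 of 1468) and 101 in POLK-/- (rank 6 of 2451). The NBPF24 site peak went from 4.26 to 11.1 and the KRBA1 site peak from 7.30 to 3.30. Sites of this kind recur in the genome as near-identical copies, so the assignment of reads between copies is uncertain.

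The fold in a list is the number of pulldown fragments at the summit over the local background of the control, with 1 added to both terms. The 2 terms were scaled differently in the lists. In POLK-/- each pulldown fragment counted as 0.736, whereas in wild-type the pulldown was unscaled and each control fragment counted as 0.606. The lowest common background was 0.573 in wild-type and 0.92 in POLK-/-, so the added 1 does not weigh alike in both. Over the 1129 pairs the median fold was 8.52 in wild-type (quartiles 6.68 and 14.6) and 10.4 in POLK-/- (quartiles 6.96 and 20.9). The median fold ratio, POLK-/- over wild-type, was 1.22 (quartiles 0.887 and 1.64), or 0.29 on the log2 scale with a 95% interval of 0.24 to 0.33 that covers the choice of peaks only. The fold was higher in POLK-/- at 751 pairs (66.5%). A ratio of 1.5 or more was found at 363 pairs, which is 32.2% of them, and a ratio of 1/1.5 or less at 78, which is 6.91%. These shares are the background against which the classes and gene lists below are read. The direction of the median depends on the 1 that the caller adds. With scaled fragments over background and no 1 added, the median log2 ratio was -0.057. Its 95% interval, -0.140 to 0.006, included 0, and 535 pairs were higher in POLK-/-. The order of the peaks was partly kept, with Spearman's rho of 0.712 between the folds over 1129 pairs, which share their 2 libraries.

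**Figure D1:**
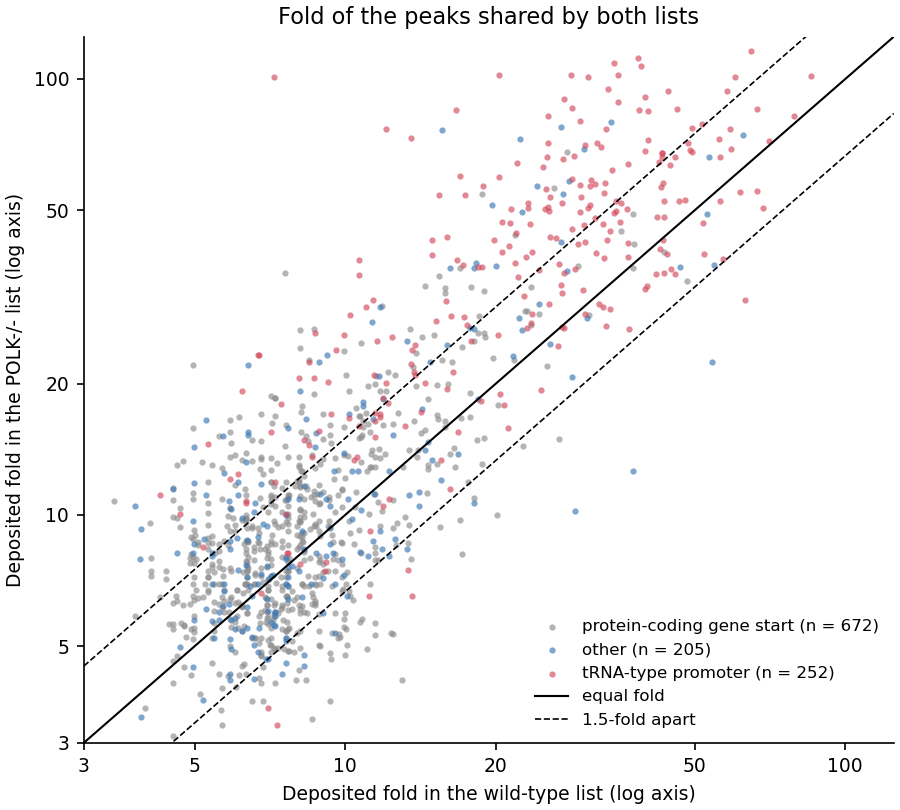
Fold of each of the 1129 shared peaks in the wild-type list (x axis) and in the POLK-/- list (y axis), both on log axes, colored by the kind of site at the wild-type summit. The solid line marks equal folds and the broken lines a 1.5-fold difference. tRNA-type promoters fill the upper right, and 32.2% of points lie on or above the upper broken line against 6.91% on or below the lower one.

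The deposited fold and p of a peak together fix the whole number of fragments at its summit and its background, and both were recovered for all peaks of the lists. The median shared peak had 16 fragments at the summit in wild-type (range 6 to 297) and 41 in POLK-/- (range 13 to 402), and the median fragment ratio was 2.43. The POLK-/- pulldown library was estimated to be 2.36 times as deep. Dividing by the median ratio gives a relative fragment ratio, for which counting error alone gives an interval for each pair. At 80 pairs (7.09%) this interval lay above 1 and at 67 (5.93%) below 1, so that for most pairs the difference in fragments from the median pair was not detectable at this depth. The most fragments at any summit were 456 in wild-type and 402 in POLK-/-, despite the deeper library. In the DDX23-/- list, with an estimated depth 3.95 times that of wild-type, the most were 390. The shortest peak widths of the 3 lists were 228, 211 and 196 bp. Where the wild-type count times 2.43 exceeds 402, a relative ratio of 1 lies beyond any count seen in POLK-/-. At the 10 shared peaks with the highest wild-type folds the median relative ratio was 0.766, and 7 intervals lay below 1. Whether counts are limited at the strongest peaks was not tested, so low relative ratios there are uncertain. Fragments ordered the peaks more alike in the 2 lists than folds did, with a rho of 0.833, whereas the rho of the backgrounds was 0.262. The background was a whole number of control fragments at 505 of the wild-type peaks (44.7%), with a median of 2 fragments, and at 535 of the POLK-/- partners (47.4%), with a median of 3. It was 4 control fragments or fewer at 426 of the 505 and 478 of the 535. A fold in either list thus often rests on a few control fragments.

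Shared peaks were also wider in POLK-/-. The median width was 354 bp in wild-type (range 228 to 1824 bp) and 470 bp in POLK-/- (range 211 to 3064 bp), and 912 pairs (80.8%) were wider in POLK-/-, with a median width ratio of 1.26. The summits of a pair were a median of 33 bp apart, and 756 pairs (67.0%) had summits within 50 bp. The deeper library gave the wider peaks, and depth and genotype cannot be told apart here. The 3 members with the smallest overlap, at PAPOLA-DT, ERCC6L2-AS1 and RNU5B-1, overlapped their partners by 9, 18 and 22 bp and had wild-type folds of 5.91, 5.72 and 13.3. The 3 closest wild-type peaks left out, at ZNF768, COQ8A and LINC00461, lay 0, 59 and 70 bp from a POLK-/- peak and had folds of 5.48, 6.64 and 6.36. The 339 wild-type peaks without an overlap had a median fold of 6.47 and a median of 11 fragments.

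By the site at the wild-type summit, 672 shared peaks (59.5%) had the start of a protein-coding gene at most 1 kb away, 252 (22.3%) held a tRNA-type promoter, 90 lay inside a gene, 52 at the start of a lncRNA gene, 33 between genes and 30 at the start of a small noncoding RNA gene. The tRNA-type peaks were the strong ones. Their median fold was 25.3 in wild-type and 39.7 in POLK-/-, against 7.68 and 8.64 at protein-coding starts. Their median fold ratio was 1.59, and 141 of the 252 (56.0%, background 32.2%) reached a ratio of 1.5. Strength is part of this comparison. Of the 282 shared peaks with the highest wild-type folds, tRNA-type ones included, 126 (44.7%) reached a ratio of 1.5, with a median of 1.41. At protein-coding starts the median ratio was 1.15 and 161 of 672 (23.96%) reached it. Small noncoding RNA starts had a median ratio of 0.897, with 6 of 30 at or above 1.5 and 8 of 30 (26.7%, background 6.91%) at or below 1/1.5.

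Fragments and backgrounds were set side by side for these 3 classes. At tRNA-type promoters the relative fragment ratio had a median of 1.05, while the local background was 3.17 genome-wide levels in wild-type and 2.17 in POLK-/-. At protein-coding starts the relative fragment ratio had a median of 1.00, and the background was 1.45 levels in wild-type and 2.17 in POLK-/-. At small noncoding RNA starts the relative fragment ratio had a median of 0.870, and the background was 1.91 levels in wild-type and 2.17 in POLK-/-. Without the added 1, the median log2 ratio stayed above 0 at tRNA-type promoters (0.53) and below 0 at small noncoding RNA starts (-0.66), but at protein-coding starts it turned from 0.20 to -0.24. The 30 wild-type peaks that shared a partner, 22 of them tRNA-type, had a median fold ratio of 2.04. With pairs of exactly 1 peak in each list, the tRNA-type median was 1.58 over 230 pairs and the protein-coding median 1.15 over 663. In fragments, 38 tRNA-type peaks (15.1%) had an interval above 1 and 42 (16.7%) below it, so their fragments spread to both sides of the median pair. Among the 282 shared peaks with the highest wild-type folds of any class these shares were 14.2% and 19.5%. With pairs of exactly 1 peak in each list, 30 of the 230 tRNA-type peaks (13.0%) lay above and 38 (16.5%) below. Low ratios at the strongest summits are uncertain, as given above.

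**Figure D2:**
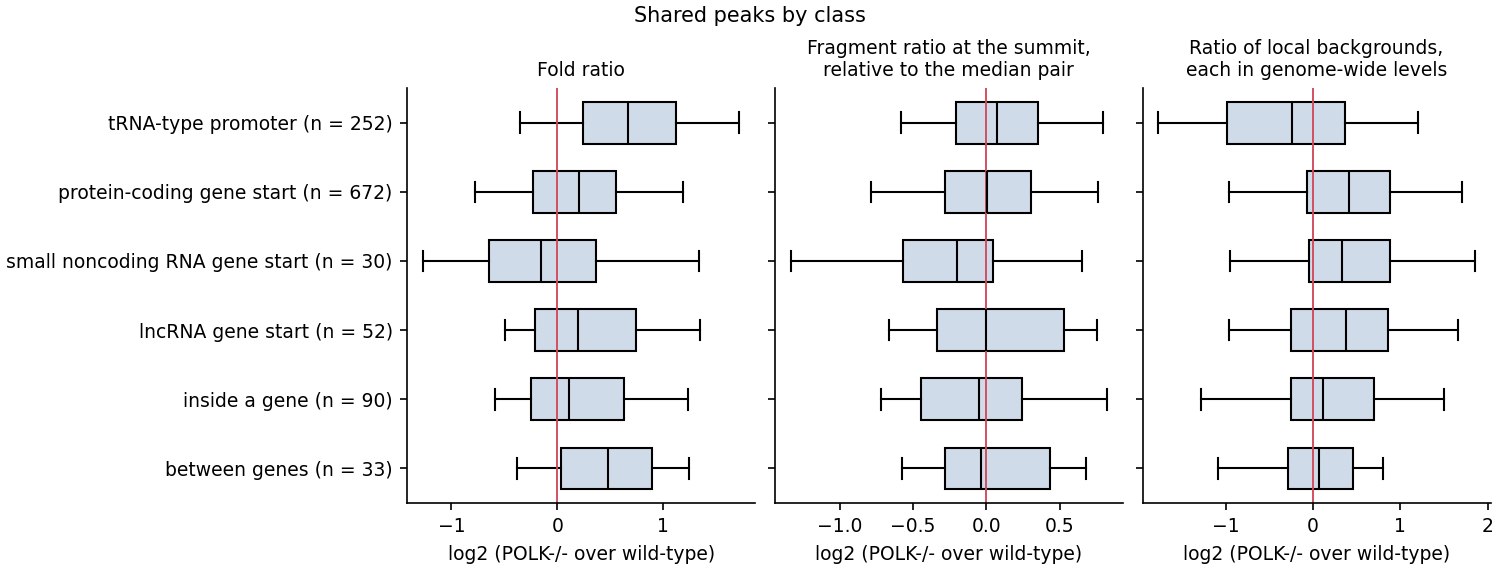
Distribution over shared peaks of each class of the log2 fold ratio (left), the log2 relative fragment ratio (middle) and the log2 ratio of local backgrounds (right), POLK-/- over wild-type. Boxes span the quartiles with the median as a line, whiskers the 5th to 95th percentiles, and the red line marks no difference. The tRNA-type class stands to the right in fold (median 0.67), near 0 in fragments and to the left in background.

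The tRNA gene clusters of chromosome 6 between 26 and 30 Mb held 118 shared peaks, 98 of them tRNA-type. The 98 had a median fold of 26.6 in wild-type and 41.3 in POLK-/-, a ratio of 1.54, and the 154 tRNA-type peaks elsewhere went from 24.04 to 39.4, a ratio of 1.66. The 52 shared peaks on the rest of chromosome 6 had median folds of 7.88 and 7.60. Among the chromosomes with at least 20 shared peaks the median log2 fold ratio ran from 0.04 on chromosome 8 (30 peaks) to 0.48 on chromosome 6 (170 peaks), and the intervals of those 2 medians, -0.18 to 0.56 and 0.33 to 0.59, overlapped.

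The 10 highest wild-type folds belonged to 9 tRNA-type peaks and 1 peak inside PDE4DIPP4, with 6 of the 10 on chromosome 6. They ranged from 61.7 to 85.5 in wild-type and from 31.0 to 116 in POLK-/-, and all 10 stayed within the strongest 7.51% of the POLK-/- list. The peak nearest to ZNF322, 85368 bp upstream of it, was 7th in wild-type with 64.6 and first in POLK-/- with 116. The largest loss of fold among the 10 was at VTRNA1-2, which encodes a vault RNA, where the fold was 63.2 in wild-type and 31.0 in POLK-/-. Its fragments were 177 and 336 and its background 3.17 and 7.61 genome-wide levels. The 10 shared peaks with the highest POLK-/- folds, some of which met the same partner, were all tRNA-type. All 10 had a lower background, in genome-wide levels, in POLK-/- than in wild-type, which the choice by POLK-/- fold favors. Near LINC00324 on chromosome 17, 3 of these wild-type peaks, with folds of 35.0, 28.2 and 20.3, met the same POLK-/- peak of 3064 bp and fold 102. The largest fold ratio of all pairs, noted after the values were seen, arose in the same way 1349 bp upstream of ALOXE3, where a wild-type peak of fold 7.19 and 28 fragments fell under a POLK-/- peak of fold 101 and 396 fragments that 2 other wild-type peaks also overlapped.

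Rank in the list was compared as a percentile, with 0 the strongest and 100 the weakest. From wild-type to POLK-/- the rank rose by 25 points or more at 261 pairs (23.1%) and fell by 25 points or more at 82 (7.26%). These counts depend on the lengths of the lists, as the POLK-/- list holds 1338 further peaks that are no partner, with a median fold of 6.27. When ranks were taken among the shared peaks only, 144 rose and 142 fell. Position bounds the change as well. Of the 282 members with the highest wild-type folds none had room to rise by 25 points and none fell by as much, whereas of the 283 with the lowest wild-type folds 176 rose.

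The 15 peaks whose rank rose most had wild-type folds of 3.45 to 5.32 and POLK-/- folds of 10.5 to 22.04. The rise was largest at ATP8A1, which encodes a phospholipid flippase, 407 bp upstream of its start (chr4:42659425-42659721). Its fold was 4.97 in wild-type (rank 1371) and 22.04 in POLK-/- (rank 262), with 13 and 57 fragments, and 6.53 in the DDX23-/- list. At LRRC41, a substrate adaptor of a ubiquitin ligase whose start lies beside that of UQCRH, the fold was 4.96 and 15.8, with 16 and 51 fragments. At ZNF622, a factor in the maturation of the large ribosomal subunit, it was 4.61 and 13.0, with 12 and 35 fragments. For these 3 genes the intervals of the relative fragment ratio, 0.98 to 3.60, 0.74 to 2.47 and 0.61 to 2.54, all included 1.

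A larger difference in fragments was seen at 2 of the 15. At ENSG00000248710, a protein-coding locus on chromosome 3, the summit had 7 fragments in wild-type and 51 in POLK-/-, a relative ratio of 3.00 (1.36 to 7.84), and folds of 4.73 and 13.3. Between genes, 3542 bp upstream of HES7, it had 10 and 57 fragments, a relative ratio of 2.35 (1.19 to 5.16), and folds of 4.97 and 14.3. WDR33, a subunit of the complex that recognizes the polyadenylation signal, went from 4.52 to 10.8, and SNRNP40, a protein of the U5 particle of the spliceosome, from 5.18 to 13.2. UACA, a regulator of apoptosis, went from 4.52 to 11.5. Of the 15, 8 were at protein-coding starts, 3 between genes, 2 at lncRNA starts and 2 at tRNA-type promoters (near NBPF24 and GPX6). A lower background in POLK-/- than in wild-type was found at 13, which the choice by rise of fold favors.

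The 15 peaks whose rank fell most were all at protein-coding starts. Their folds were 8.35 to 13.0 in wild-type and 3.40 to 5.65 in POLK-/-. The fall was largest at PCNP, which encodes a PEST-containing nuclear protein (chr3:101292895-101293266, summit 40 bp into the gene), with a fold of 13.0 in wild-type (rank 326), 4.18 in POLK-/- (rank 2339) and 17.8 in the DDX23-/- list. It had 21 and 27 fragments, a relative ratio of 0.53 (0.29 to 0.98), the only interval of the 15 that excluded 1. At ZBTB25, a zinc finger protein, the fold was 9.33 and 3.75 with 14 and 19 fragments. At H1-4, a linker histone gene, the fold was 11.1 and 4.91 with 18 and 32 fragments.

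DCPS, the scavenger decapping enzyme, had folds of 12.5 and 5.32, HNRNPAB, an RNA-binding protein, 9.36 and 4.66, and CDC73, a subunit of the PAF1 elongation complex, 11.4 and 5.65. Their fragments were 19 and 42, 20 and 62, and 17 and 37. Ranked by fragments, these 3 together with BRMS1L and SPINDOC moved the other way, up by 7.19, 14.4, 7.33, 22.2 and 6.31 points. EZR, which encodes the membrane linker ezrin, had folds of 12.3 and 5.35. All 15 had a higher background in POLK-/- than in wild-type, with medians of 4.35 and 1.21 genome-wide levels. Background divides the fold they were chosen on, so this direction follows in part from the choice.

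**Figure D3:**
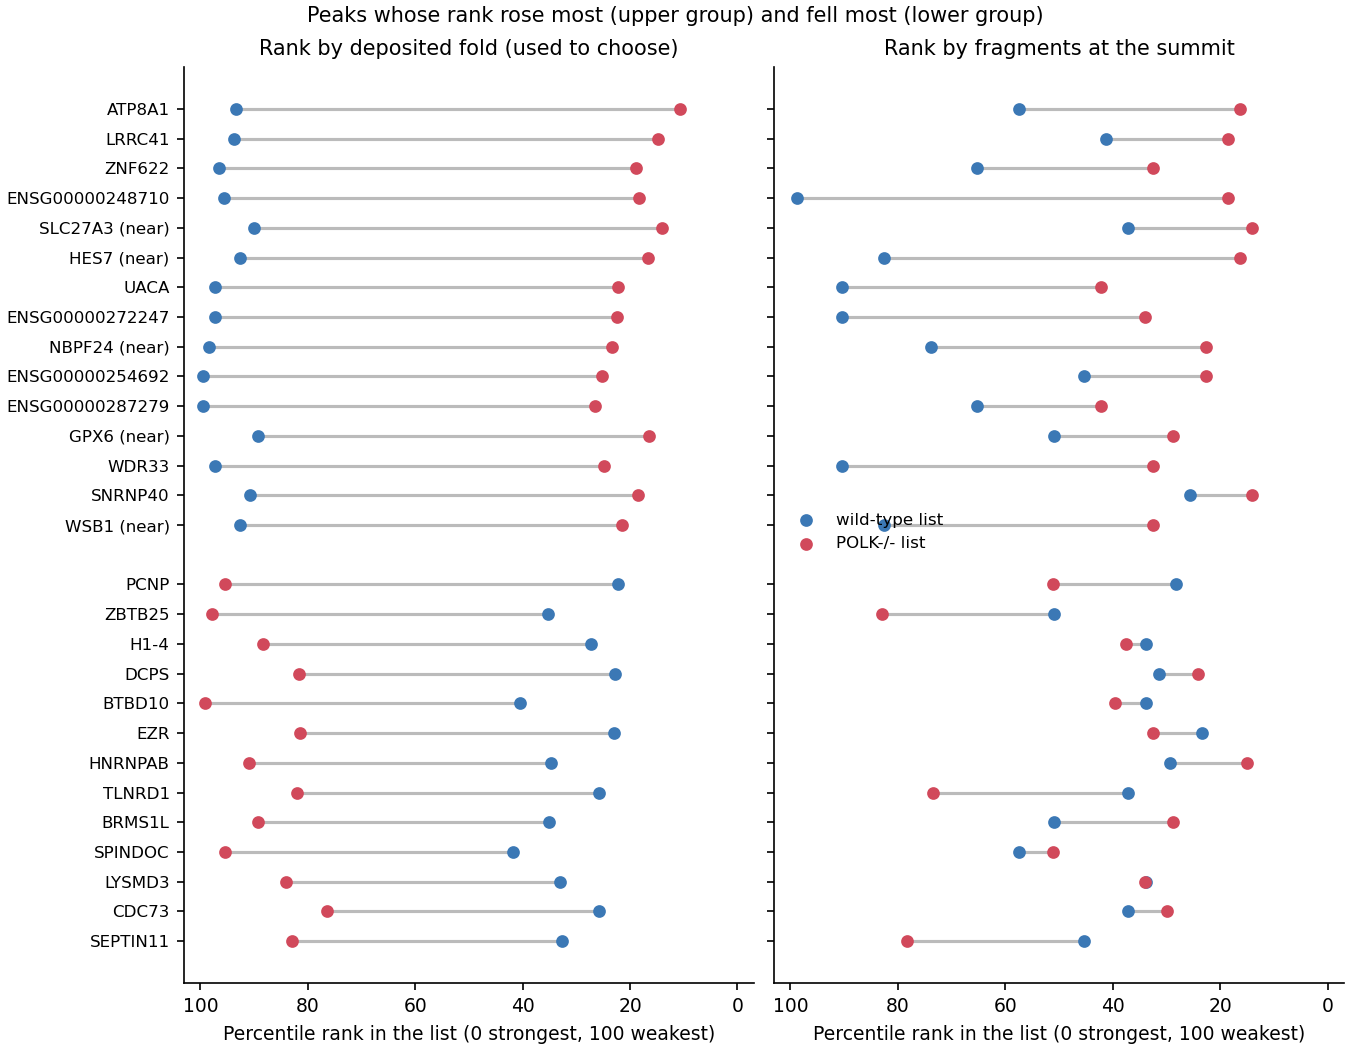
Percentile rank in the wild-type list (blue) and the POLK-/- list (red) of the 15 shared peaks whose rank by fold rose most (upper group) and 13 of the 15 whose rank fell most (lower group). The left panel ranks by fold, the measure the peaks were chosen on, and the right panel by fragments at the summit. "Near" marks peaks more than 1 kb from the named gene's start. In the right panel all 15 of the upper group still move up, while 5 of the lower group move the other way.

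Fragments and background were compared in the same way over all peaks past 25 points. Both are terms of the fold these peaks were chosen on, so their direction follows in part from the choice. Over all 1129 pairs the median background ratio, POLK-/- over wild-type in genome-wide levels, was 1.15. The 261 that rose had a median of 12 fragments in wild-type and 37 in POLK-/-, a relative fragment ratio of 1.24, and a background of 2.12 and 1.88 genome-wide levels, lower in POLK-/- at 149 of the 261. The 82 that fell had 14.5 and 27.5 fragments, a relative ratio of 0.768, and a background of 1.24 and 3.26 levels, higher in POLK-/- at 81 of the 82. By the rank of fragments, 140 of the 261 also rose by 25 points and 14 moved the other way, whereas 16 of the 82 also fell by 25 points and 39 moved the other way. An interval of the relative fragment ratio that excluded 1 in the same direction was found at 24 of the 261 and 5 of the 82. In the DDX23-/- list, which 1123 shared peaks overlapped, the median fold was 15.1 at the peaks that rose and 12.002 at those that fell, beside 17.0 over all.

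**Figure D4:**
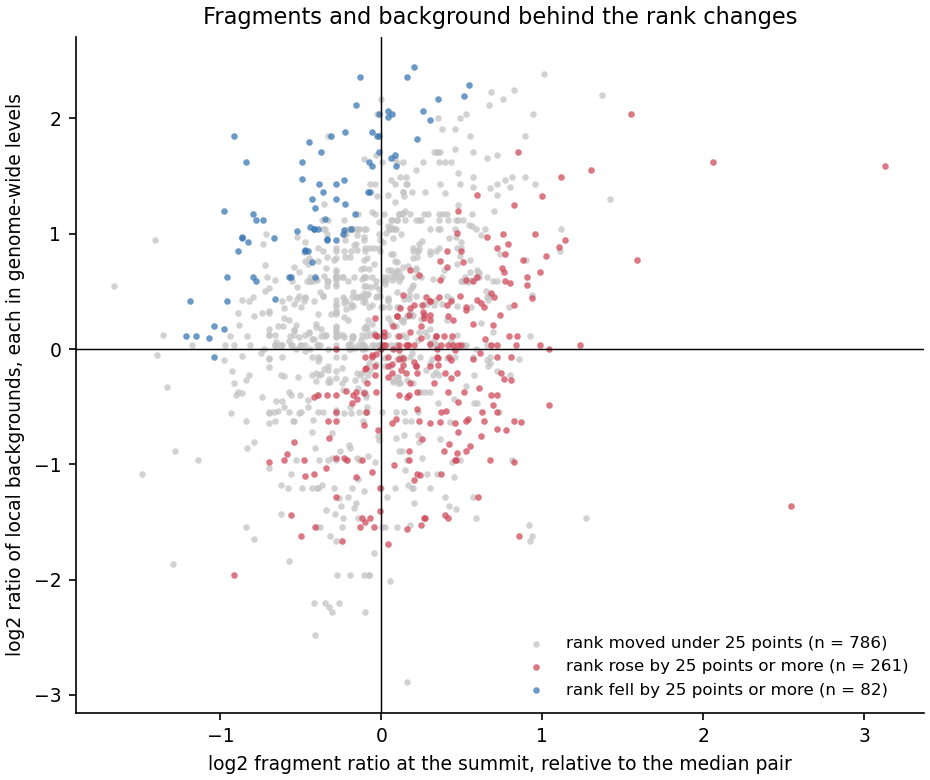
Each shared peak placed by its log2 relative fragment ratio (x axis) and the log2 ratio of its local backgrounds in genome-wide levels (y axis), POLK-/- over wild-type. Red points are the 261 peaks whose rank rose by 25 points or more, blue points the 82 whose rank fell by as much, and gray points the rest. Blue points fill the upper part, with 81 of 82 above the horizontal line, whereas red points lie mostly to the right. Both axes are terms of the fold on which the colors were chosen.

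Protein-coding starts made up 195 of the 261 peaks that rose (74.7%, 95% exact binomial interval 69.0 to 79.9%) and 66 of the 82 that fell (80.5%, 70.3 to 88.4%), beside 59.5% of all shared peaks. tRNA-type promoters made up 20 of the 261 (7.66%) and 4 of the 82 (4.88%), beside 22.3%. The median tRNA-type peak stood at percentile 10.6 of the wild-type list, and a peak above percentile 25 has no room to rise by 25 points. The GC content of the peaks had a median of 66.2% in those that rose and 68.4% in those that fell, beside 46.0% at tRNA-type promoters.

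Promoter sequence was compared because the peaks that rose and fell both lay at gene starts. The 101 bp around the wild-type summit are shown for 2 promoters of each group that held no annotated exon, in the direction of the gene, from GRCh37. They are chr3:160167833-160167933 (minus strand, upstream of ENSG00000248710) and chr15:71055996-71056096 (minus strand, upstream of UACA) for the rise, and chr14:64971990-64972090 (minus strand, upstream of ZBTB25) and chr5:177631428-177631528 (plus strand, upstream of HNRNPAB) for the fall. Capitals mark the motifs GGGCGG (the GC box), CCAAT (the CCAAT box), CCGGAAG (a site of ETS factors) and TATAAA (the TATA box) on either strand.
ENSG00000248710: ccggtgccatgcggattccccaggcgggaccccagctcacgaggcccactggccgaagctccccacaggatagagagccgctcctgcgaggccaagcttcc
UACA: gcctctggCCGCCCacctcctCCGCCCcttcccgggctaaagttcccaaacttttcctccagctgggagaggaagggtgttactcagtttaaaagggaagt
ZBTB25: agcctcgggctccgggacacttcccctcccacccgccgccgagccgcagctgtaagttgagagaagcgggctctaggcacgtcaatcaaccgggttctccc
HNRNPAB: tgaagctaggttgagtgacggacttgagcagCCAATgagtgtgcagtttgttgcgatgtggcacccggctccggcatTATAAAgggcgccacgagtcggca
The UACA window held 2 GC boxes, the HNRNPAB window 1 CCAAT and 1 TATAAA, and the other two none of the 4. In windows of 300 bp around the summits of peaks at protein-coding starts, GGGCGG was found in 138 of the 195 that rose (70.8%, 63.9 to 77.0%) and 51 of the 66 that fell (77.3%, 65.3 to 86.7%), beside 73.2% of the 672 shared peaks at such starts and 54.1% of all 20098 protein-coding starts. CCAAT was found in 36.9% of those that rose and 30.3% of those that fell, beside 38.5% of the 672 and 33.7% of all starts. CCGGAAG was found in 18.5% and 13.6%, beside 19.8% of the 672 and 12.1% of all starts. TATAAA was found in 2.05% and 4.55%, beside 3.57% of the 672 and 9.23% of all starts. The intervals of the 2 groups overlapped for each of the 4 motifs. A match is a run of letters and not a measured binding site.

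Gene lists were read against the background of 32.2% at or above a fold ratio of 1.5, 6.91% at or below 1/1.5, and 7.09% and 5.93% with fragments above and below the median pair. The last 2 shares depend on strength, since intervals narrow as fragments grow. Among the 282 members with the highest wild-type folds they were 14.2% and 19.5%. The shares past the 2 fold ratios in those members were 44.7% and 4.26%. Of the 18 Pol III noncoding RNA genes sought, 17 had a shared peak. Their median fold was 30.5 in wild-type and 33.0 in POLK-/-, with 3 of 17 at or above a ratio of 1.5 and 4 of 17 at or below 1/1.5. The 4 were RNY3, RNY4 and RNY5, which are neighbors on chromosome 7, and VTRNA1-2. In fragments, 3 lay above the median pair (RNU6ATAC, BCYRN1 and RNU6-8) and 6 below it (RNY1, RNY3, RNY4, RNY5, RNU6-2 and VTRNA1-2). RNY3 and VTRNA1-2 had 250 and 177 fragments in wild-type. A relative ratio of 1 there would need more than 402, the most at any POLK-/- summit, so their place below is uncertain. The 17 are strong peaks, with a median of 70 wild-type fragments beside 69 in those 282 members, whose shares are the nearer comparison. The fold ratio went the other way at RNU6ATAC (0.782, relative fragment ratio 1.77) and RNU6-2 (1.30, relative fragment ratio 0.618).

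All 4 Y RNA genes, whose short RNAs bind the Ro60 protein and have been tied to the start of DNA replication, were among those with fewer fragments. They lie within 46.6 kb on chromosome 7. RNY4 (chr7:148660268-148660733) had 52 fragments in wild-type and 40 in POLK-/-, a relative ratio of 0.32 (0.20 to 0.49), the lowest of all pairs, and folds of 28.8 and 10.2. RNY5 had 73 and 67 fragments, a relative ratio of 0.38 (0.27 to 0.53), and folds of 37.6 and 12.6. RNY3 had 250 and 365 fragments, a relative ratio of 0.60 (0.51 to 0.71), and folds of 54.1 and 22.5. Its low relative ratio is uncertain, because a ratio of 1 would need more than the 402 fragments seen at most in POLK-/-. RNY1 had 128 and 127 fragments, a relative ratio of 0.41 (0.32 to 0.53), while its folds were 27.8 and 36.3 and its background 6.35 and 1.74 levels. Fold and fragments thus went opposite ways at RNY1, as they did at RNU6ATAC and RNU6-2. The neighboring peaks at CUL1 and PDIA4 had relative ratios of 0.82 (0.45 to 1.57) and 0.93 (0.45 to 2.01). In the DDX23-/- list the folds at RNY4, RNY5, RNY3 and RNY1 were 43.1, 55.7, 51.5 and 71.4.

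The fold ratios of the vault RNA genes lay on both sides of 1. VTRNA1-1 had a fold of 13.5 in wild-type and 73.4 in POLK-/-, with 70 and 190 fragments, a relative ratio of 1.12 (0.85 to 1.49), and backgrounds of 7.41 and 1.00 levels. VTRNA1-3 had 87 and 178 fragments and folds of 39.8 and 33.0. BCYRN1, the gene of the neuronal BC200 RNA, had 35 and 148 fragments, a relative ratio of 1.74 (1.20 to 2.59), and folds of 19.7 and 51.4. At RN7SK, whose RNA holds the elongation factor P-TEFb inactive, fragments were 69 and 181 and folds 35.6 and 44.8, and at RMRP, the RNA of RNase MRP, 30 and 62 and 17.8 and 19.0. Their relative ratios, 1.08 and 0.85, had intervals that included 1. Of the 26 shared peaks at small noncoding RNA starts other than those of the Y RNA genes, 4 had fragments above and 4 below the median pair.

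**Figure D5:**
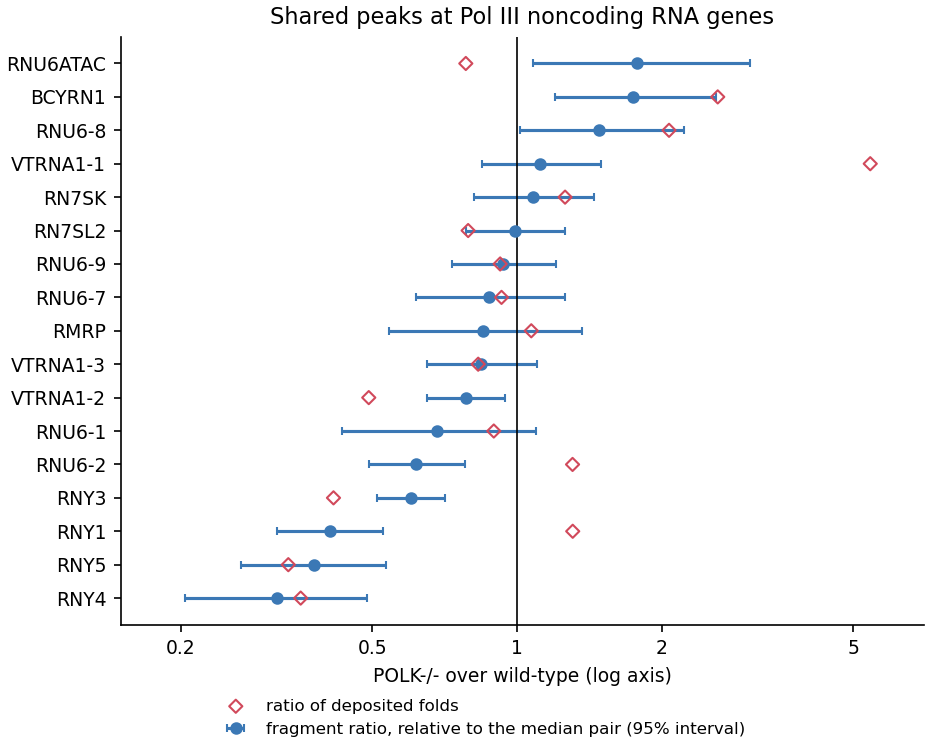
Relative fragment ratio with its 95% counting interval (blue) and ratio of the deposited folds (red diamonds), POLK-/- over wild-type on a log axis, at the 17 shared peaks of Pol III noncoding RNA genes. The 4 Y RNA genes are the lowest in fragments, at 0.32 to 0.60, and at VTRNA1-1 and RNY1 the fold ratio stands far above the fragment ratio.

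Protein-coding lists had few shared peaks. A gene was counted when its start lay within 1 kb of the summit, so a peak may belong to another feature nearby. Replication-dependent histone genes had 5 of 68, with folds of 11.1 and 4.91 at H1-4 and 48.3 and 34.5 at H2BC5. The folds were 18.5 and 28.5 at a summit 892 bp upstream of H4C8. At H2BC5, 135 and 186 fragments gave a relative ratio of 0.57 (0.45 to 0.71). Genes of RNA polymerase subunits and Pol III factors had 9 of 44 with a median fold ratio of 1.40, 2 at or above 1.5 and none at or below 1/1.5. At a summit 213 bp upstream of POLR3E, a Pol III subunit, the folds were 48.8 and 68.6 and the fragments 107 and 278. At POLR2E they were 4.96 and 8.81 and 16 and 51. Cytosolic ribosomal protein genes had 5 of 86, among them RPL3 (6.33 and 11.1) and RPL26 (13.6 and 7.94), and mitochondrial ribosomal protein genes 7 of 78, among them MRPL17 (4.97 and 9.25) and MRPS12 (8.59 and 6.24).

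Zinc finger genes had 14 of 514 at 13 shared peaks, with 3 of the 13 at or above a ratio of 1.5. DEAD and DEAH helicase genes had 4 of 54, none past either ratio, with the fewest relative fragments at DDX55 (37 and 52, relative ratio 0.58, 0.37 to 0.91). Genes of replication and translesion synthesis had 3 of 49, namely POLE2 (6.50 and 3.73), MCM6 (7.68 and 7.42) and POLD2 (5.08 and 8.68), and no host gene of small nucleolar RNAs of 29 had one. POLK itself (chr5:74807670-74905816) had no shared peak. The wild-type list held 1 peak 191 bp upstream of its start, with a fold of 6.36 on 9 fragments, the POLK-/- list held none within 10 kb of the gene, and the DDX23-/- list held 1 with a fold of 6.71 on 29 fragments. A list gives peaks past the caller's threshold only, so fragments below it at this start are not known.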

How the data were processed

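Chromatin was crosslinked, sonicated and pulled down, and the labels place all samples on a HiSeq4000. Of 16 samples, 3 have peak lists, 1 per genotype, taken as assigned in the deposit. The submitters' processing notes name Bowtie2, MACS2, bedtools, deepTools and hg19 without versions, and the control and any pooling are not given in the sources used here. The authors deposited per peak a fold (a ratio of scaled fragments plus 1 to background plus 1), the −log10 of the p-value and of the q-value, a score of 10 times the latter, and the summit offset.

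Whole fragments and backgrounds were solved from the fold and the p with the MACS2 formulas (tolerance 0.001), which matched all 1468, 2451 and 5945 peaks, and the recovery and pairing were tested on simulated data. Each list's genome-wide level is the lowest background that 2% or more of its peaks had. Totals are not in the lists, so depth was estimated as this level divided by the pulldown scale and by the shortest peak width. Intervals of shares and fragment ratios are exact binomial (Clopper-Pearson), 95%, and cover counting error only. Reads carry no molecular identifiers.

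Sites were placed with the GRCh37 sequence and GENCODE 44 lifted to it, in the order tRNA-type promoter, protein-coding start, small noncoding RNA start, lncRNA start, inside a gene and between genes. A tRNA-type promoter is a B box, GTTCGANNC or GTTCAANNC on either strand, preceded at 24 to 110 bp by an A box. Starts count within 1 kb of the summit. The peaks named are the 15 with the largest rise and the 15 with the largest fall of rank, the 10 highest folds of each list, examples from the lists, and POLK. Of the 15 falls, 2 are not reported here by name. The members, lists and thresholds were chosen with earlier results of these data known. Python 3.11, numpy, pandas, scipy and pysam were used. With 1 list per genotype no test between genotypes was made.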

Additional observations from a re-analysis of the deposited data

How the results depend on the processing

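No paired analysis was possible because each genotype has 1 peak list, although the labels number the libraries of each genotype alike, and for the same reason no replicate could be left out. Of 67 recomputed values of the 9 summary results, 49 stayed within 1.5 times the count or within the interval of the median or rho. Some settings could hardly move a value. Chromosomes 1 to 22 and X kept 1128 of the 1129 pairs. Pairing by the nearest summit could differ only at the 2 wild-type peaks that overlapped 2 POLK-/- peaks. With fragments over background and no 1 added, the median log2 fold ratio changed sign to -0.057, but its interval of -0.140 to 0.006 included 0. In that setting pairs with lower fold became 320 and rho 0.590. Dividing each ratio by the median gave 204 pairs with higher and 205 with lower fold, and a ratio of 2 gave 169 and 19. A rank change of 10 points gave 496 rising and 187 falling. Ranks among shared peaks gave 144 rising and 142 falling. Ranks by −log10 p gave 44 falling and rho 0.778, and ranks by fragments, added after seeing the data, 34 falling and rho 0.833. A reciprocal overlap of 50% moved the median log2 width ratio to 0.31 and the summit distance to 30.5 bp, and a q of 1e-05 or less moved the latter to 30 bp. Of the 30 named rank changes, 30 kept their direction and 25 points without the added 1, 25 by −log10 p and 12 by fragments. By fragments DCPS (7.19), HNRNPAB (14.4), BRMS1L (22.2), SPINDOC (6.31) and CDC73 (7.33) reversed. The causes were not tested. Summits of 6 to 20 fragments and backgrounds of a few control fragments limit single peaks.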
